A study of Rattus norvegicus with 12 samples.

Results

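The imprinted growth genes described here are 9 genes that the mouse expresses mainly from a single parental copy: H19, Meg3, Cdkn1c, Igf2r and Grb10, expressed from the maternal copy in most mouse tissues, and Igf2, Dlk1, Plagl1 and Mest, expressed from the paternal copy. They were taken as every probe set whose single symbol in the array's probe-to-gene annotation was 1 of those 9 names. This gave 16 of the 31099 probe sets, and 9 of the 14218 genes with a symbol of their own. Where several probe sets read a gene, that of highest 12-array mean stood for it. All 9 genes passed the filter that left 11001 genes for testing, a line mean of at least 5 on the log2 scale in at least 1 line.

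Genomic imprinting silences the maternal or the paternal copy of a gene through DNA methylation laid down in the germ line. Many imprinted genes act on growth, and by mouse genetics the paternally expressed ones tend to promote it and the maternally expressed ones to restrain it. Igf2 encodes a fetal growth factor, Igf2r a receptor that takes that factor up for breakdown, Grb10 an adaptor that dampens insulin and insulin-like growth factor receptor signalling, and Cdkn1c the cyclin-dependent kinase inhibitor p57. Imprinted expression can be lost or altered in cultured pluripotent cells, which is why these genes are often examined in reprogrammed lines. The arrays measure the sum of both copies, so no statement on allelic expression or methylation can be drawn from them.

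The study set rat induced pluripotent stem (iPS) cells, made with a transposon system, beside rat embryonic stem (ES) cells and rat embryonic fibroblasts (EF), to ask whether the iPS cells had reached the expression state of ES cells. The 6 lines were iPS A1 and iPS A2 of the FHH strain, ES DAC2 and ES DAC8 (no strain stated), and EF REF2 and EF REF1 from FHH embryos at e14.5. The iPS and ES cells, kept in 2i medium, were harvested for RNA 5 days after passaging and the EF, kept in fibroblast medium, after 6 days, and each line had 2 arrays. The labels describe the iPS lines as grown on mitomycin-treated mouse fibroblast feeders, with no mention of their removal, and the amount of mouse RNA in those samples was not measured. Whether a line's 2 arrays stem from separate cultures is not stated. A p-value between lines therefore measures only how far such arrays differ, which can be technical spread.

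Several arrays went against their labels, and this bears on every comparison below. Of 14 fibroblast markers, all 14 lay at or above 5 in the arrays labelled DAC8 and in those labelled REF1, with medians of 11.88 and 11.995, against 4 to 6 of 14 and medians of 4.55 to 4.68 in the other lines. Of 11 ES cell markers, 10 lay at or above 5 in the arrays labelled DAC2 and in those labelled REF2, with medians of 10.01 and 9.94, against 3 to 5 of 11 elsewhere. Of 14 neural markers, 13 lay at or above 5 in each iPS line, with medians of 9.95 in A1 and 10.03 in A2, against 5 to 9 of 14 elsewhere. The other 5 marker lists (primitive endoderm, trophoblast, muscle, macrophage and blood, endothelial) had medians between 3.09 and 5.46 in every line. Over the 11001 genes, DAC2 correlated with REF2 at 0.975 and DAC8 with REF1 at 0.987, but DAC2 with DAC8 at 0.638 and REF2 with REF1 at 0.636. No array was moved, and each line keeps its label. In RNA from whole cultures, fewer cells of a type and less RNA per cell cannot be told apart. Array medians lay between 5.28 and 5.41, and 53.6% to 54.6% of probe sets reached 5. The actin 3′ probe set exceeded the 5′ probe set by 0.42 to 0.52 in the 4 arrays labelled DAC8 and REF1 and by 0.84 to 1.05 in the other 8. The part of this RNA quality measure in the results was not tested.

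The 9 genes lie on 4 chromosomes of the rat assembly GRCr8. H19, a non-coding RNA, spans chr1:207160175-207162851, and Igf2 spans chr1:207243873-207261263, 81.0 kb away, while Cdkn1c lies further along the same chromosome at chr1:208084801-208087680. Dlk1 at chr6:134192491-134199779 and Meg3, a second non-coding RNA, at chr6:134274056-134306249 are separated by 74.3 kb. Igf2r lies at chr1:50526878-50615265, Plagl1 at chr1:9297066-9337394, Mest at chr4:60321814-60332288 and Grb10 at chr14:90708653-90816399. The transcription units of H19, Igf2 and Meg3 carry microRNAs within their span, so a host level is also the level of a possible precursor. The mature sequences from RefSeq (GRCr8) are shown with the seed, bases 2 to 8, in capitals, and the microRNAs themselves were not measured here.
rno-miR-675-5p (in H19): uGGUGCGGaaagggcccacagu
rno-miR-675-3p (in H19): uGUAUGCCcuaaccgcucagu
rno-miR-483-5p (in Igf2): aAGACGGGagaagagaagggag
rno-miR-483-3p (in Igf2): cACUCCUCcccucccgucuugu
rno-miR-770-5p (in Meg3): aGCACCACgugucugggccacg
rno-miR-770-3p (in Meg3): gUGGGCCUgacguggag
No seed is shared among these 6 microRNAs.

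The promoters of Meg3 and Dlk1 are printed because these neighbours, which share a control region in the mouse, had different level patterns over the lines. CG dinucleotides, the sites of DNA methylation, are in capitals, both sequences are on the plus strand of GRCr8 from RefSeq, and only bases before the annotated gene start are given.
Meg3, chr6:134273806-134274055: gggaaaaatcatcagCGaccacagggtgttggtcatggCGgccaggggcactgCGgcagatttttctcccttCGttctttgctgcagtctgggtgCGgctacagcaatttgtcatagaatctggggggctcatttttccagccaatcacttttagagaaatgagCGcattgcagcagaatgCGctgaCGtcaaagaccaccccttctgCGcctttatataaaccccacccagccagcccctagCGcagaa
Dlk1, chr6:134192347-134192490: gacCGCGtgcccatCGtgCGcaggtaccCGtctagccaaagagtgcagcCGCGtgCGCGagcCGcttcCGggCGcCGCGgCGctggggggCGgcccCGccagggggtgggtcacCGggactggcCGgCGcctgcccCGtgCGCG
The Meg3 stretch of 250 bases holds 10 CG dinucleotides, and the shorter Dlk1 stretch of 144 bases holds 23. Over the table's window of 250 bases before to 50 after a start, Meg3 had 13 and Dlk1 45, and 64.7% and 98.3% of the 33469 promoter windows had fewer. The palindrome TGACGTCA, known as a cyclic AMP response element, was found in the Meg3 window 66 bases before the start and in none of the other 7 windows of these genes, against 1.83% of all windows. TATAAA, searched on both strands, occurred in the Meg3 window, in none of the others, and in 14.2% of all windows. GGGCGG, searched likewise, occurred in 7 of the 8 windows, all but that of Meg3, and in 33.1% of all windows. A match is only a run of letters. The table had windows for 7 of the 9 genes, with 2 for Igf2, and H19 and Cdkn1c were not matched in it.

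H19 and Meg3, the non-coding RNAs made from the maternal copy, were lowest in both iPS lines. H19 read 5.65 and 5.74 on the 2 arrays of iPS A1 and 5.86 and 5.96 in iPS A2. It read 7.54 and 7.54 in ES DAC2 and 9.97 and 10.03 in ES DAC8, against 10.28 and 10.23 in EF REF2 and 12.37 and 12.22 in EF REF1. No array of a line overlapped another line, and the order REF1, REF2, DAC8, DAC2, A2 and A1 had called steps throughout except between A2 and A1 (adjusted p = 0.186). Here and below a difference between lines is called where limma's Benjamini-Hochberg adjusted p over 11001 genes is below 0.05. H19 and the first probe set of Meg3 were the only orders among these genes in which both EF lines stood above both ES lines, and both ES lines above both iPS lines.

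Meg3 read 5.79 and 5.23 in iPS A1 and 5.57 and 5.85 in iPS A2. It read 7.96 and 7.84 in ES DAC2 and 8.31 and 8.33 in ES DAC8, against 9.27 and 9.23 in EF REF2 and 9.28 and 9.27 in EF REF1. The 4 EF arrays thus lay between 9.23 and 9.28, and REF2 and REF1 could not be told apart (difference -0.03 ± 0.16 SE, limma adjusted p = 0.887). A second Meg3 probe set gave another picture of the same lines. It read 3.18 and 3.48 in A1, 3.44 and 3.36 in A2, 5.49 and 5.42 in DAC2 and 8.58 and 8.62 in DAC8, against 7.20 and 7.23 in REF2 and 9.79 and 9.81 in REF1. On that probe set REF2 was lower than REF1 by a log2 difference of -2.58 and DAC2 lower than DAC8 by -3.14, where the first probe set gave -0.03 and -0.41. Both probe sets put the iPS lines lowest and each ES line below the EF line of like profile, and they differed on how far DAC2 and REF2 stood below DAC8 and REF1. Which transcript ends or isoforms each probe set reads was not tested.

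Cdkn1c, whose protein p57 holds cells out of the division cycle, was the gene of this group that stood highest in the iPS lines. It read 10.03 and 10.27 in iPS A1 and 10.53 and 10.29 in iPS A2. It read 7.77 and 7.61 in ES DAC2 and 6.06 and 6.21 in ES DAC8, against 6.80 and 6.71 in EF REF2 and 7.40 and 7.29 in EF REF1. Every iPS array was above every other array. The remaining order was DAC2, REF1, REF2 and DAC8, with each step called (limma adjusted p of 0.0171, 0.000693 and 0.000516). Neural markers were high in the same 2 lines, as given above, and their part in this difference was not tested.

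Igf2r read 8.79 and 9.02 in iPS A1 and 8.90 and 8.999 in iPS A2. It read 9.99 and 9.98 in ES DAC2 and 11.86 and 11.79 in ES DAC8, against 10.33 and 10.29 in EF REF2 and 11.64 and 11.69 in EF REF1. DAC8 and REF1 held the top of the order and did not differ by the test (adjusted p = 0.182), DAC2 and REF2 the middle, and the iPS lines the bottom. The second Igf2r probe set gave the same order from DAC8 to DAC2, with 8.25 and 8.18 in A1, 8.08 and 8.18 in A2, 9.46 and 9.41 in DAC2 and 11.26 and 11.25 in DAC8, against 9.70 and 9.71 in REF2 and 11.17 and 11.14 in REF1.

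Grb10 was high in 2 lines, intermediate in the iPS lines and low in the other 2. It read 6.76 and 6.55 in iPS A1 and 6.26 and 6.53 in iPS A2. It read 3.43 and 3.41 in ES DAC2 and 11.15 and 11.18 in ES DAC8, against 3.12 and 3.53 in EF REF2 and 11.41 and 11.23 in EF REF1. The DAC2 and REF2 arrays were below 5, where a signal is not told from background. A difference from such a level is therefore given as a lower bound, here and below with array values under 5 set to 5. Grb10 was at least 71.6-fold lower in DAC2 than in DAC8 and at least 79.8-fold lower in REF2 than in REF1 (limma adjusted p of 9.13e-11 and 8.04e-11, on the measured differences of -7.74 and -7.99). The 2 other Grb10 probe sets also separated DAC8 and REF1, at 5.52 to 6.25, from all other lines, at 2.37 to 4.35. They did not show the middle level of the iPS lines, where all their values were below 5. In the mouse, Grb10 is expressed from the paternal copy in neurons, and which copy was read here is unknown.

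Igf2 was high in 2 lines and near the filter in 4. It read 5.38 and 5.10 in iPS A1, 5.49 and 5.05 in iPS A2, 5.99 and 5.94 in ES DAC2 and 11.16 and 11.13 in ES DAC8. In the fibroblast lines it read 6.11 and 5.91 in EF REF2 and 12.65 and 12.56 in EF REF1. REF1 and DAC8 stood apart from all others and from each other, REF2 and DAC2 could not be told apart (adjusted p = 0.829), and both were above the iPS lines. The 3 other Igf2 probe sets did not show this pattern. Probe set 1371206_a_at stayed between 4.89 and 5.79 on all 12 arrays, and 1388252_at and 1398322_at between 3.40 and 4.23, including on the arrays where the first probe set read above 11. The high Igf2 level of DAC8 and REF1 therefore rests on 1 of 4 probe sets. Probe set 1371206_a_at was itself higher in DAC2 than in DAC8, by 0.59, against the direction of the first probe set, and lower in the iPS lines than in DAC2, by -0.56, in its direction (limma adjusted p of 0.00249 and 0.00160, over 15191 probe sets).

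Dlk1, a transmembrane protein related to Notch ligands that is known for restraining fat cell differentiation, covered a narrow range. It read 5.85 and 5.84 in iPS A1, 5.45 and 5.72 in iPS A2, 4.52 and 4.31 in ES DAC2 and 6.01 and 6.08 in ES DAC8. In the fibroblast lines it read 4.46 and 4.38 in EF REF2 and 7.14 and 7.28 in EF REF1. REF1 was highest, DAC8, A1 and A2 formed a middle group in which no neighbouring step was called (adjusted p of 0.100 and 0.279), and DAC2 and REF2 were below 5. The iPS lines thus lay above DAC2 and REF2 for Dlk1, while for its neighbour Meg3 they lay below them.

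Plagl1 encodes a zinc-finger transcription factor that regulates other imprinted genes in the mouse. It read 3.15 and 3.18 in iPS A1, 3.48 and 4.26 in iPS A2, 7.17 and 7.16 in ES DAC2 and 9.75 and 9.88 in ES DAC8. In the fibroblast lines it read 5.49 and 5.47 in EF REF2 and 9.85 and 9.82 in EF REF1. The 4 iPS arrays were all below 5, so Plagl1 was not shown to be above background there. REF1 and DAC8 did not differ by the test (adjusted p = 0.939), and DAC2 stood above REF2 by 1.68.

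Mest, also named Peg1, encodes a protein of the hydrolase fold. It read 6.92 and 7.16 in iPS A1, 6.88 and 7.12 in iPS A2, 8.05 and 8.07 in ES DAC2 and 9.0 and 8.95 in ES DAC8. In the fibroblast lines it read 7.58 and 7.66 in EF REF2 and 10.37 and 10.31 in EF REF1. The order REF1, DAC8, DAC2, REF2, A1 and A2 had called steps except between A1 and A2 (adjusted p = 0.910). The whole range was smaller than that of Igf2, but the iPS lines were again at the bottom.

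**Figure D1:**
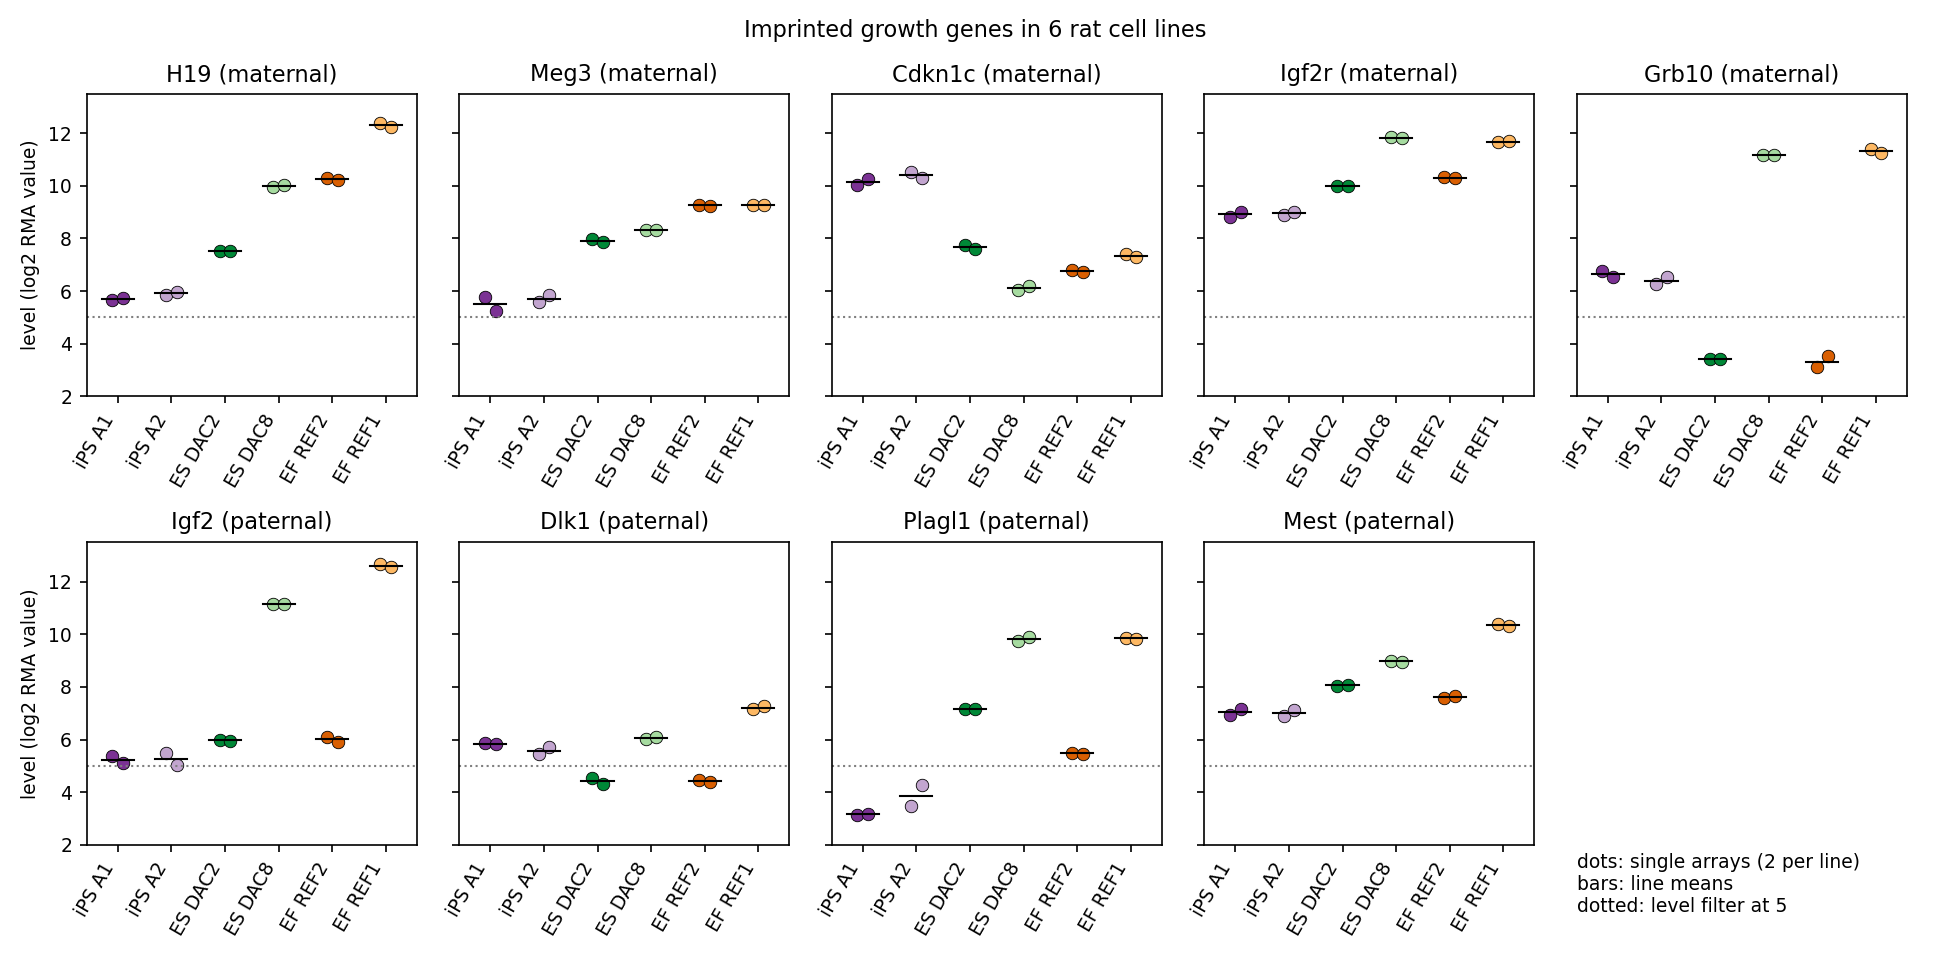
Log2 level (y axis, RMA value) of each gene's representative probe set in the 6 lines (x axis), with 1 dot per array and a bar at the line mean; the dotted line marks the filter at 5. The iPS arrays are highest for Cdkn1c, at 10.03 to 10.53, and Grb10 and Igf2 read above 11 only in the arrays labelled ES DAC8 and EF REF1.

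**Figure D2:**
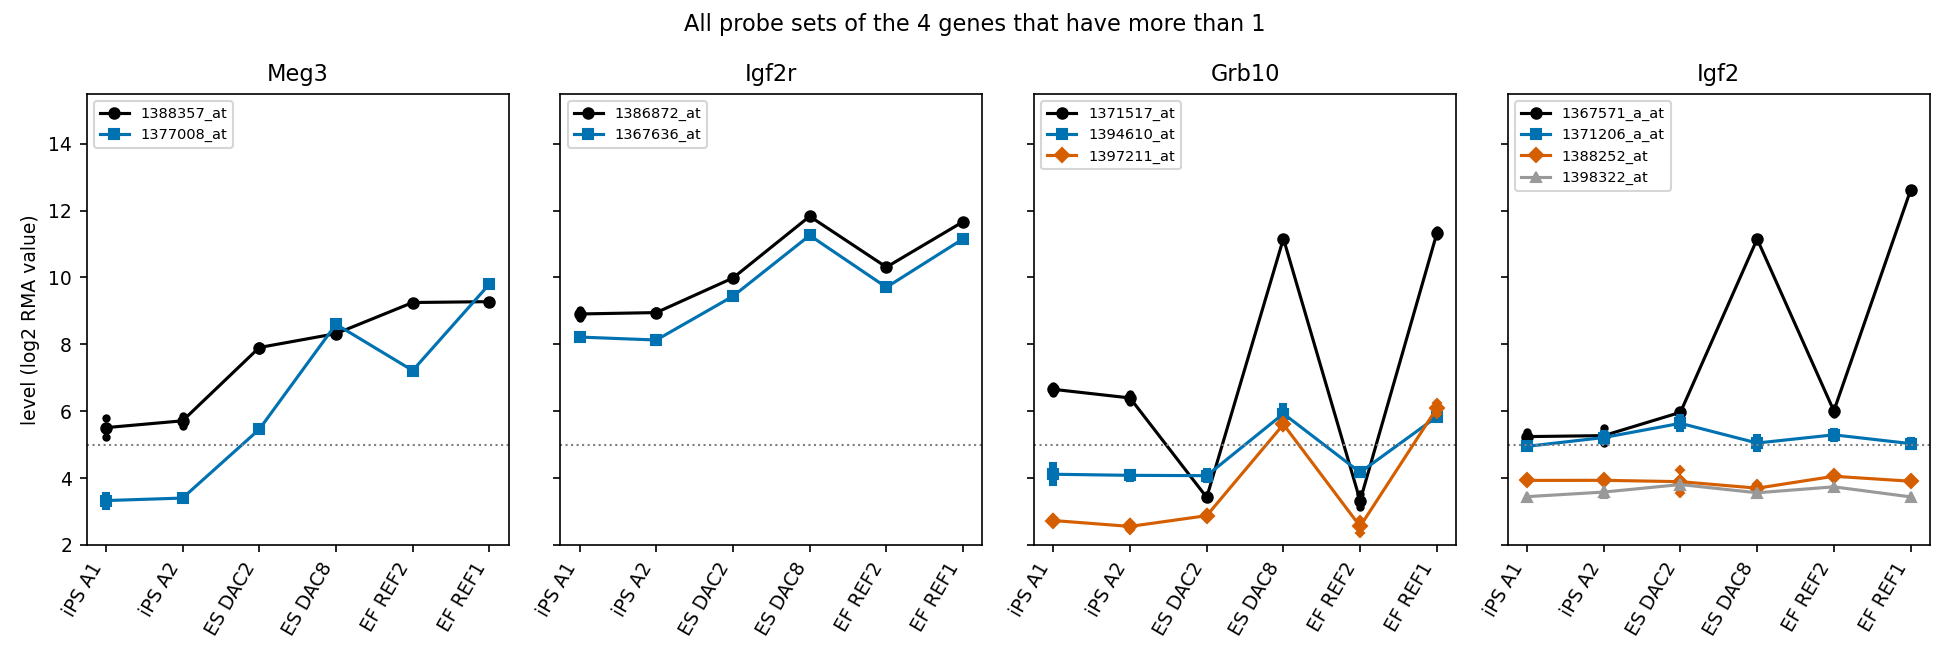
Log2 level (y axis) of all probe sets of Meg3, Igf2r, Grb10 and Igf2 in the 6 lines (x axis), with line means joined and small symbols for the arrays. The probe sets of Igf2r run in parallel, the second Meg3 probe set reads 7.20 and 7.23 in REF2 where the first reads 9.27 and 9.23, and 3 of 4 Igf2 probe sets stay between 3.40 and 5.79.

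Set by cell type as labelled, iPS cells differed from ES cells in 1 of the 9 genes, and that gene was Meg3. Its level averaged 5.61 in iPS cells and 8.11 in ES cells over 2 lines each, a log2 difference of -2.50 ± 0.25 (SE) and a 5.66-fold lower level (limma on 6 line means, adjusted p = 0.0259). Over all genes, 2.26% were called in this comparison, and 0.436% were called lower in iPS cells. On the second Meg3 probe set, below 5 on all 4 iPS arrays, the level averaged at least 4.08-fold lower in iPS cells and the difference was not called (adjusted p = 0.360), with DAC2 below DAC8 by -3.14. With all 12 arrays and line as a random block, its correlation estimated, Meg3 was not called (adjusted p = 0.0969), while Cdkn1c was called higher (adjusted p = 0.00919) and H19 lower in iPS cells (adjusted p = 0.0450). With a replicate block added, Cdkn1c alone was called (adjusted p = 0.0172), with Meg3 at an adjusted p of 0.126 and H19 at 0.0679. Which of the 9 genes is called between iPS and ES cells thus depends on this setting. Line means were kept as the main fit because a line block had called too many genes in earlier simulations. Leaving out any single line ended the Meg3 call too, with adjusted p of 0.107 without DAC2, 0.122 without DAC8, 0.465 without A1 and 0.440 without A2, and differences of -2.29 to -2.71. Each of those fits called 0 genes of the whole array, so that loss is not particular to Meg3.
The other 8 genes did not pass, although the arrays of 7 of the 9 did not overlap between iPS and ES cells, against 42.1% of all genes. Of these 7, Cdkn1c was higher in iPS cells, at 10.28 against 6.91 in ES cells (difference 3.37 ± 0.60, limma adjusted p = 0.0966). H19 averaged 5.80 in iPS cells and 8.77 in ES cells (difference -2.97 ± 1.10, limma adjusted p = 0.346). Igf2r, Igf2 and Mest also averaged lower, with differences of -1.98, -3.30 and -1.50, and Plagl1 at least 11.2-fold lower, with adjusted p of 0.321 to 0.705 over these 4 genes. For Grb10 and Dlk1 the arrays overlapped, with the 2 ES lines on either side of the iPS lines.

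Against EF, iPS cells again differed in Meg3 alone of the 9, at 5.61 in iPS cells and 9.26 in EF, a difference of -3.65 ± 0.25 and a 12.6-fold lower level (limma adjusted p = 0.0116). Over all genes 2.53% were called, and 0.509% were called lower in iPS cells. The second Meg3 probe set averaged at least 11.4-fold lower in iPS cells (adjusted p = 0.202). With line as a random block, the setting that called too many genes in simulations, Meg3 (adjusted p = 0.0160), H19 (0.00155) and Cdkn1c (0.0116) were all called. In the fit on line means the Meg3 call ended without any single line of the 4 compared (adjusted p of 0.0919 to 0.308), and each of those fits called 0 genes of the whole array. The arrays of 7 genes did not overlap, against 43.5% of all genes. H19 averaged 5.80 in iPS cells and 11.28 in EF, a difference of -5.47 ± 1.10 (limma adjusted p = 0.118), and Cdkn1c 10.28 in iPS cells and 7.05 in EF, a difference of 3.23 ± 0.60 (limma adjusted p = 0.101). This comparison and the previous one share the iPS arrays.

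ES cells and EF, as labelled, differed in none of the 9 genes, and 0% of all 11001 genes were called by limma, with 25 genes at an unadjusted p below 0.05. Only H19 and Meg3 had arrays that did not overlap, 2 of 9 genes against 3.3% of all genes. H19 averaged 8.77 in ES cells and 11.28 in EF (difference -2.51 ± 1.10), and Meg3 8.11 in ES cells and 9.26 in EF (difference -1.15 ± 0.25). The second Meg3 probe set overlapped, since its ES DAC8 arrays at 8.58 and 8.62 lay above its EF REF2 arrays at 7.20 and 7.23. With the lines labelled DAC8 and REF2 left out, H19 differed by -1.73 between iPS and ES cells and by -6.49 between iPS cells and EF. Between ES cells and EF it differed by -4.76. Cdkn1c was higher in iPS cells by 2.59 against ES cells and by 2.93 against EF. Those fits hold 1 ES line and 1 EF line, which are taken to vary as A1 and A2 do, so their counts of called genes are not read.

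Lines of the same label were then compared, with all 12 arrays in the fit. Between iPS A1 and iPS A2 none of the 9 genes was called, against 1.81% of all genes (199 genes), and 1532 genes had an unadjusted p below 0.05. The smallest adjusted p of the 9 was that of Plagl1 (0.130), whose 4 iPS arrays were all below 5, so no size is given. Plagl1 was called without the first A2 array (adjusted p = 0.000599).
Between ES DAC2 and ES DAC8 all 9 genes were called, 1 higher and 8 lower in DAC2, but so were 84.2% of all genes, 47.9% higher and 36.3% lower. The median difference over all genes was 0.18, over the 5 maternally expressed genes -1.84 and over the 4 paternally expressed genes -2.14, or -1.85 with values under 5 set to 5. Cdkn1c was the gene higher in DAC2, by 1.55 ± 0.11 (limma adjusted p = 6.89e-07). On the probe sets standing for the genes, Meg3 had the smallest difference, -0.41 ± 0.16 (limma adjusted p = 0.0354). That call ended without any single array of the 2 lines (adjusted p of 0.0608 to 0.141). The second Meg3 probe set gave -3.14 and was called (limma adjusted p = 1.27e-09, over 15191 probe sets).
Between EF REF2 and EF REF1, 8 of 9 genes were called, all lower in REF2, against 83.3% of all genes called and 36% called lower. The median was -1.36 over the maternally expressed genes and -3.57 over the paternally expressed genes (-3.54 with values under 5 set to 5), against 0.15 over all genes. Igf2 was lower in REF2 by -6.60 ± 0.14, a 96.8-fold difference, and Plagl1 by -4.36 ± 0.19, a 20.5-fold difference (limma adjusted p of 2.42e-10 and 2.58e-08). The Igf2 value rests on the probe set standing for the gene. Igf2 probe set 1371206_a_at gave 0.26 and was not called (limma adjusted p = 0.0972). Meg3 was the gene not called here, but its second probe set gave -2.58 and was called (limma adjusted p = 4.68e-09, over 15191 probe sets). In both comparisons most genes of the array differed, so these counts are read against that background and not as a feature of the 9 genes.

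Between the lines of like profile, fewer genes of the array differed, and the imprinted growth genes split. DAC2 against REF2 called 6 of the 9 genes, 3 higher and 3 lower in DAC2, against 45.7% of all genes, 20.9% higher and 24.8% lower. A call with a difference of at least 2-fold was reached by 3 of 9 genes, H19, Meg3 and Plagl1, against 4% of all genes. H19 was lower in DAC2 by -2.72 ± 0.07 (6.58-fold, limma adjusted p = 3.6e-08) and Meg3 by -1.35 ± 0.16 (2.54-fold, limma adjusted p = 0.000199). Plagl1 was higher in DAC2 by 1.68 ± 0.19 (3.21-fold, limma adjusted p = 0.000171). Cdkn1c and Mest were also higher in DAC2, by 0.93 and 0.44, and Igf2r lower, by -0.32. For Grb10, Igf2 and Dlk1 the arrays of the 2 lines overlapped.
DAC8 against REF1 called 6 of the 9 genes, all lower in DAC8, against 19.8% of all genes and 8.81% called lower. A call with at least a 2-fold difference was reached by 5 of 9 genes, against 1.53% of all genes. H19 was lower in DAC8 by -2.29 ± 0.07 (limma adjusted p = 7.52e-07), Igf2 by -1.46 ± 0.14 (limma adjusted p = 0.000234) and Mest by -1.37 ± 0.10 (limma adjusted p = 3.85e-05). Igf2 probe set 1371206_a_at gave 0.02 here and was not called (limma adjusted p = 0.946). Cdkn1c was lower by -1.22, Dlk1 by -1.16 and Meg3 by -0.96. Igf2r and Grb10 did not pass, at 0.16 and -0.16, and Plagl1 overlapped. H19 and Meg3 were thus lower in the line labelled ES than in the line labelled EF within both pairs, and the second Meg3 probe set gave -1.76 for DAC2 against REF2 and -1.20 for DAC8 against REF1. The pairs were formed with these profiles already known, and they share no array.

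**Figure D3:**
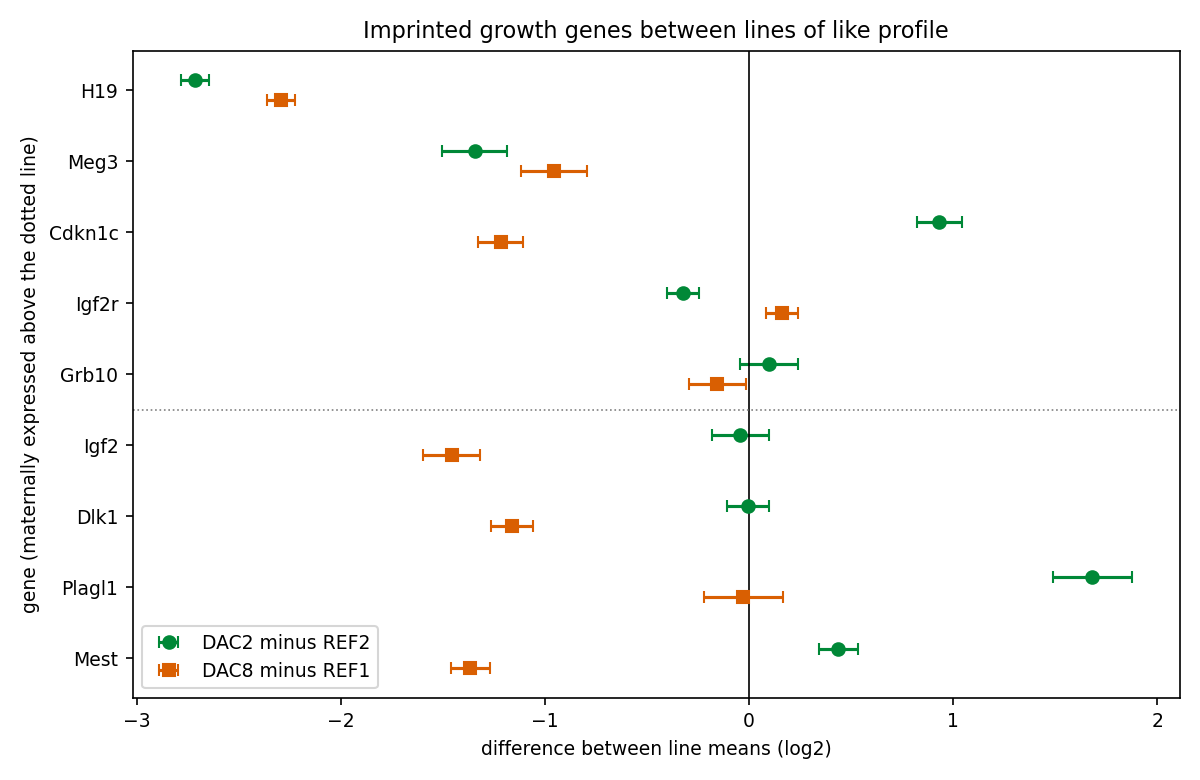
Difference between line means (x axis, log2) with its standard error for each gene (y axis), for DAC2 minus REF2 (circles) and DAC8 minus REF1 (squares), 2 arrays per line. H19 lies at -2.72 and -2.29 and Meg3 at -1.35 and -0.96, while Cdkn1c lies at 0.93 and -1.22, and Grb10 and Dlk1 read below 5 in both DAC2 and REF2.

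The mean of the 2 iPS lines was set against each other line in turn, and each of these 4 comparisons called all 9 genes, beside 81.4% of all genes for DAC2, 81.3% for DAC8, 81.1% for REF2 and 81.7% for REF1. Against DAC2, iPS cells were higher in Cdkn1c by 2.59 ± 0.10, and lower in 6 genes. Grb10 was at least 2.88-fold and Dlk1 at least 1.64-fold higher in iPS cells, DAC2 being below 5 for both. Against REF2, also below 5 for both, the bounds were the same, Cdkn1c was higher by 3.52, and the same 6 were lower. The higher Grb10 level rests on 1 of 3 probe sets. On the other 2, below 5 in the iPS lines, DAC2 and REF2, it was not called (adjusted p of 0.876 and 0.130 against DAC2, and 0.664 and 0.557 against REF2), and the mean of the 3 probe sets gave differences of 0.96 against DAC2 and 1.07 against REF2. Against DAC8 only Cdkn1c was higher in iPS cells, by 4.15, and against REF1 only Cdkn1c, by 2.93.
Among the largest deficits in iPS cells were those of Igf2, -5.89 ± 0.12 against DAC8 and -7.35 ± 0.12 against REF1, and of H19 against REF1, -6.49 ± 0.06 (limma adjusted p of 1.75e-10, 5.07e-11 and 3.46e-12). The Igf2 deficits rest on a single probe set of the 4. Probe set 1371206_a_at gave 0.03 against DAC8 and 0.05 against REF1 (limma adjusted p of 0.809 and 0.707). The others read below 5 on every array. Plagl1 was at least 28.1-fold lower in iPS cells than in DAC8 and at least 28.6-fold lower than in REF1, its iPS level being below 5. The Dlk1 difference from DAC8 was small, -0.33 ± 0.09 (limma adjusted p = 0.00641), and was lost without the second DAC8 array (adjusted p = 0.0510). These 4 comparisons share the iPS arrays.

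The levels of neighbouring genes of opposite parental expression were laid side by side over the 6 line means, with the probe set that stands for each gene unless another is named. H19 and Igf2, which share enhancers in the mouse, correlated at 0.821, but REF2 had H19 at 10.26 with Igf2 at 6.01 while DAC8 had H19 at 10.00 with Igf2 at 11.15. A high H19 level was thus found both with and without a high Igf2 level on that probe set. With the other 3 Igf2 probe sets, H19 correlated at -0.136 to -0.072. Meg3 and Dlk1 correlated at 0.027, but at 0.412 with the second Meg3 probe set, with the iPS lines low in Meg3 and in the middle of the Dlk1 range. These coefficients describe 6 points that fall into pairs of like lines, and no test was made of them.
Among all 36 pairs of the 9 genes, the 28 pairs without Cdkn1c had coefficients above 0, and 9 of them above 0.9. The highest were Igf2r with Plagl1 at 0.961 and Igf2 with Mest at 0.953. Cdkn1c correlated below 0 with 7 of the other 8 genes, down to -0.912 with Meg3. Of the highest values, that of Igf2r with Plagl1 lay across the parental classes and that of Igf2 with Mest within the paternal class. The lowest, Cdkn1c with Meg3, with Igf2r (-0.872) and with H19 (-0.823), lay within the maternal class. Next came Cdkn1c with the paternally expressed Plagl1, at -0.809.

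**Figure D4:**
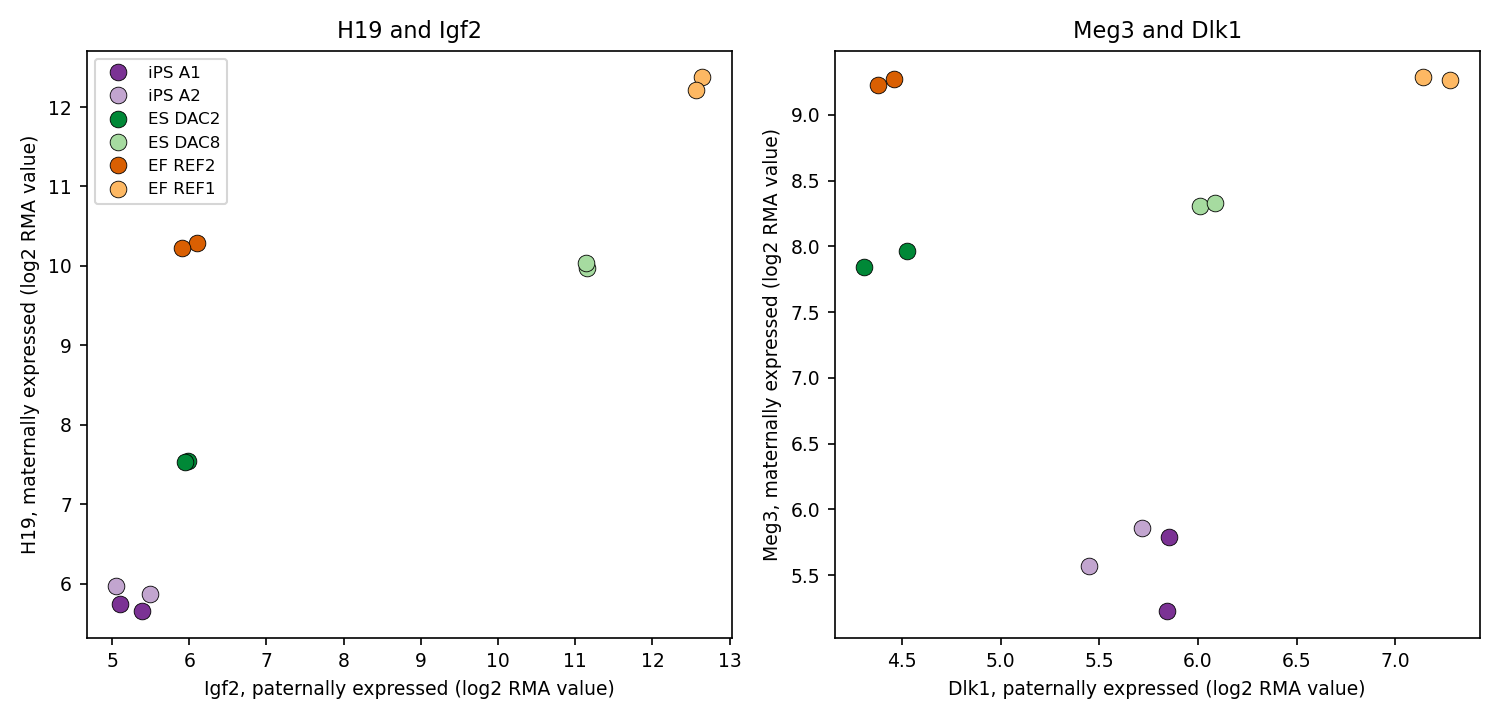
Log2 level of the maternally expressed gene (y axis) against its paternally expressed neighbour (x axis) on each of the 12 arrays, for H19 and Igf2 (left) and for Meg3 and Dlk1 (right), coloured by line. REF2 lies at H19 levels of 10.28 and 10.23 with Igf2 at 6.11 and 5.91, while DAC8 has a like H19 level with Igf2 at 11.16 and 11.13.

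For each gene, the 3 other genes with the most similar line means were listed from 6979 genes whose line means spanned at least 1 log2 unit. For H19 these were Fbln2, Csrp2 and Hdlbp (Pearson correlation of 0.997, 0.992 and 0.989 over 6 lines). For Meg3 they were Gja1, Arhgap28 and Ptgfrn (0.995, 0.990 and 0.990), and for Cdkn1c Ccni, Eps8 and Asic2 (0.994, 0.993 and 0.990). Igf2r was closest to Rab20, Lmo7 and S1pr2, Grb10 to Twsg1, Adgrl2 and Alcam, and Igf2 to Styxl2, Aebp1 and Spsb1. Dlk1 was closest to Stc1, Ssr3 and Col16a1, Plagl1 to Ubald1, Clic4 and Krcc1, and Mest to Gda, Tnfaip8l3 and Yif1a. With 6 lines in 3 pairs of like profile such coefficients are easily high. At 0.95 or above there were 47 genes for H19, 79 for Dlk1, 97 for Meg3, 105 for Mest and 190 for Plagl1. There were 233 for Cdkn1c, 353 for Igf2r, 606 for Grb10 and 628 for Igf2.

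Other imprinted genes showed no single direction between the lines. Their parental classes are those listed for the mouse, and which copy was read in these lines is unknown. Of 13 tested maternally expressed and 16 tested paternally expressed genes outside the 9, iPS cells were called higher than ES cells for Gatm, at 5.76 in iPS cells and 3.57 in ES cells (difference 2.19 ± 0.28, limma adjusted p = 0.0467), and for Nap1l5, at 9.002 in iPS cells and 3.47 in ES cells (5.53 ± 0.50, limma adjusted p = 0.0213). Both ES levels are below 5, so these measured differences stand for at least 1.70-fold and at least 16.0-fold higher levels. Slc38a4, an amino acid transporter, was lower in iPS cells, at 5.66 against 8.55 in ES cells (-2.89 ± 0.26, limma adjusted p = 0.0214), and the other 12 and 14 genes were not called. The same 3 genes were called in iPS cells against EF, at the same bounds for Gatm and Nap1l5 and a difference of -2.97 for Slc38a4, and no gene of the 2 lists between ES cells and EF. The shares over all genes were 2.26% for iPS against ES cells, 2.53% for iPS cells against EF and 0% for ES cells against EF.
Between A1 and A2 the paternally expressed Zdbf2 was called, at 8.90 in A1 and 8.12 in A2 (0.78, limma adjusted p = 0.000523), beside 1.81% of all genes. In DAC2 against DAC8, 3 of the 13 maternally expressed genes were higher and 8 lower, and 7 of the 16 paternally expressed genes higher and 4 lower, beside 47.9% and 36.3% of all genes. Among the called genes with both lines above 5 were the maternally expressed Cd81 (-6.11) and Cobl (3.23) and the paternally expressed Zdbf2 (3.62), Ndn (-3.02) and Sfmbt2 (1.75). Osbpl5, Tfpi2 and Peg12 were below 5 in DAC2, and lower there by at least 29.1-fold, 5.04-fold and 21.7-fold. REF2 against REF1 had 4 higher and 7 lower of 13, and 12 higher and 3 lower of 16, beside 47.3% and 36% of all genes. There the medians were -0.95 over the maternally expressed genes and 0.52 over the paternally expressed genes, or -0.51 and 0.21 with values under 5 set to 5, against 0.15 over all genes.
DAC2 against REF2 called 1 higher and 5 lower of the 13, among them Cd81 (-1.43) and Gnas (-0.999), and 3 higher and 6 lower of the 16, among them Sgce (-1.49), Nnat (-1.15), Ndn (1.08) and Peg10, which was below 5 in DAC2 and at least 1.11-fold lower there. The shares over all genes were 20.9% higher and 24.8% lower. DAC8 against REF1 called 5 higher and 1 lower of 13 and 3 higher and 1 lower of 16, beside 11% and 8.81% of all genes. None of these was a 2-fold difference, whereas 5 of the 9 imprinted growth genes were, against 1.53% of all genes. Several of the other imprinted genes, among them Gatm, Nap1l5 and Peg10, read below 5 in both lines, where no difference can be shown. Igf2 is among the 5, and its difference rests on the probe set standing for the gene.

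**Figure D5:**
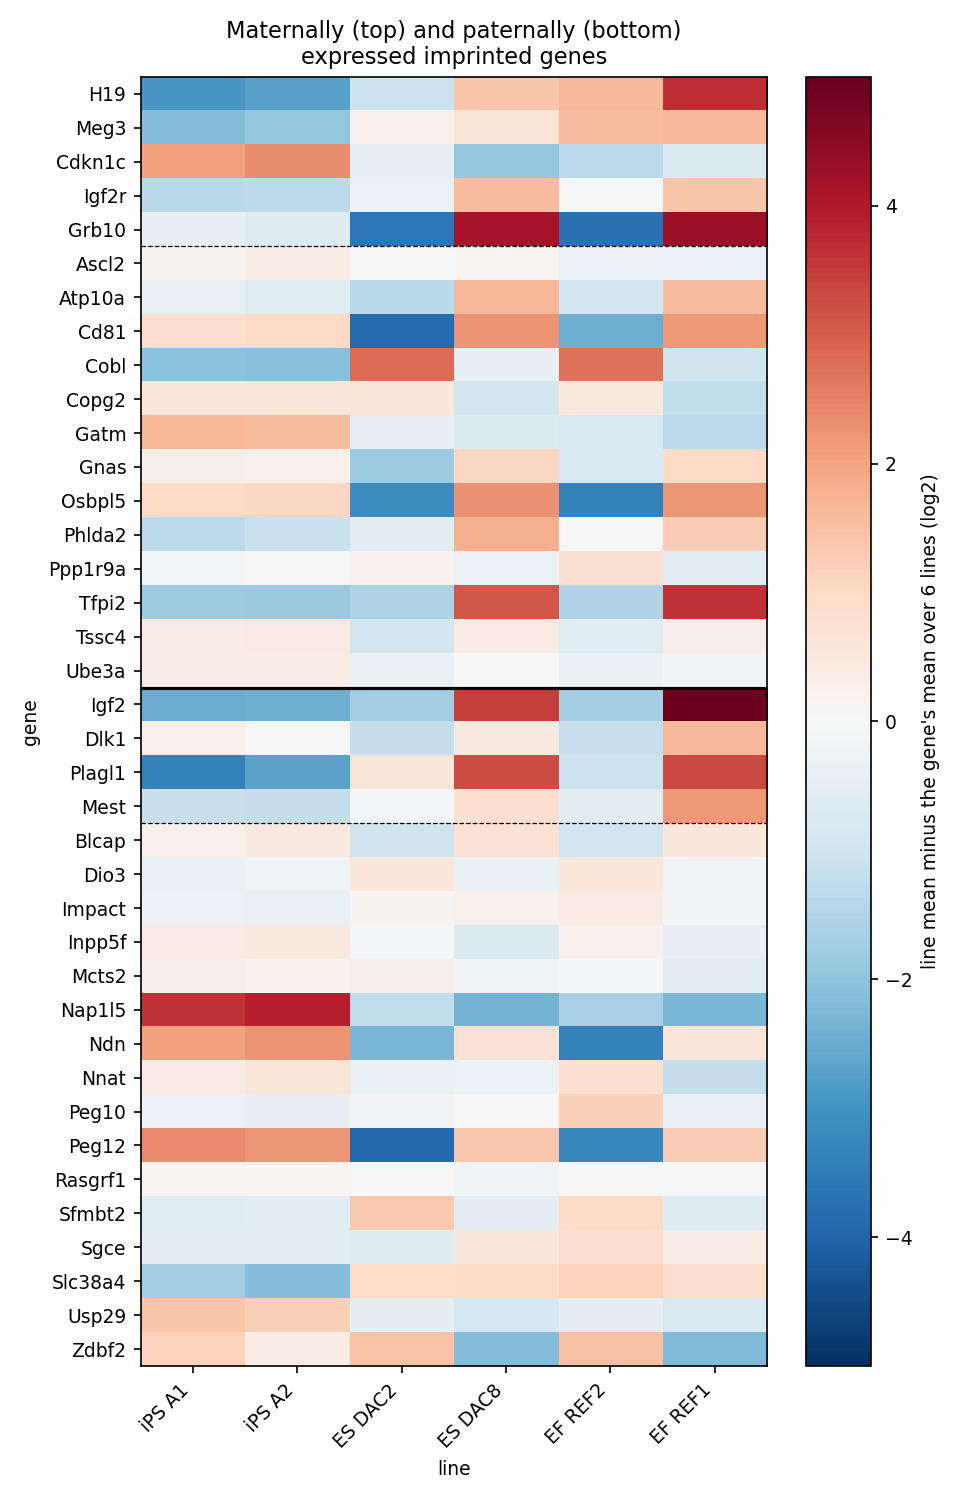
Line mean minus the gene's own mean over the 6 lines (colour, log2) for imprinted genes that are maternally (top) and paternally (bottom) expressed in the mouse, in the 6 lines (x axis), with the 9 growth genes above the dashed lines of each block. Nap1l5 is high in the iPS lines, at a mean of 9.002, and Zdbf2 is high in DAC2 and REF2, at 9.20 and 9.21, and low in DAC8 and REF1, at 5.58 and 5.54.

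The wider insulin-like growth factor axis, 21 tested genes other than those above, was called in 1 gene between iPS and ES cells, the adaptor Shc1, at 8.02 in iPS cells and 10.40 in ES cells (-2.38 ± 0.28, limma adjusted p = 0.0386). Shc1 was also lower in iPS cells than in EF (-2.62, limma adjusted p = 0.0297), again as the only gene called. Of all genes, 2.26% were called between iPS and ES cells and 2.53% between iPS cells and EF. Igf1r, the receptor through which the Igf2 product signals growth, was low in the iPS lines, at 4.45 in A1 and 4.69 in A2, and read 7.81 in DAC2 and 9.17 in DAC8, against 7.08 in REF2 and 8.88 in REF1. Insr, the insulin receptor, read 6.11 in A1, 6.21 in A2, 3.67 in DAC2 and 6.25 in DAC8, against 3.66 in REF2 and 6.33 in REF1. Igf1, a second growth factor of the axis, was above 5 only in DAC8 at 7.54 and in REF1 at 7.88. DAC2 against DAC8 called 7 genes higher and 12 lower of 21, and REF2 against REF1 also 7 and 12, where 84.2% and 83.3% of all genes were called. DAC2 against REF2 called 4 higher and 8 lower, beside 45.7% of all genes, with Igf1r at 0.73 and Igf1 below 5 in both lines. DAC8 against REF1 called 3 higher, with Pcsk6 at 0.60, and none lower, beside 11% and 8.81% of all genes.

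Factors that maintain imprints or insulate imprinted domains, 21 tested genes, were called in no cell-type comparison. The shares over all genes were 2.26% for iPS against ES cells, 2.53% for iPS cells against EF and 0% for ES cells against EF. Between lines, DAC2 against DAC8 called 18 higher and 2 lower, with a median difference of 0.88 against 0.18 over all genes, and REF2 against REF1 19 higher and 1 lower, with a median of 0.99 against 0.15. Of all genes, 84.2% and 83.3% were called, 47.9% and 47.3% higher. The factors called higher included Tet2, an enzyme that oxidises methylated cytosine (3.21 and 3.28), and Uhrf1, which guides maintenance methylation (2.46 and 2.80). Tet1, an enzyme of the same family as Tet2, averaged below 5 in DAC8 and REF1 and was higher by a log2 difference of at least 3.70 in DAC2 than in DAC8 and at least 3.74 in REF2 than in REF1. The level of Zfp57, a zinc-finger protein that protects methylated imprints, was 7.55 in A1, 7.55 in A2, 9.57 in DAC2 and 8.73 in DAC8, against 9.67 in REF2 and 8.67 in REF1. Ctcf, the factor that binds the insulator between H19 and Igf2 in the mouse, varied less, at 8.97 in A1, 8.99 in A2, 9.11 in DAC2 and 8.17 in DAC8, against 8.95 in REF2 and 8.19 in REF1. In DAC8 against REF1, 1 of these 21 factors was called higher (Ehmt2, 0.28) and 1 lower (Eed, -0.25), beside 11% and 8.81% of all genes.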

How the data were processed

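RNA of 6 rat lines (2 arrays each) was measured on 12 Affymetrix arrays. The deposited values are log2 intensities of 31099 probe sets, and the submitters' processing notes name RMA and Partek 6.2. Scale (1.45 to 14.12), centring and unit were read from the values. The array number per line, not depth, limits the precision. Of the probe sets, 20832 had a single symbol, 436 several and 9831 none, and 57 were array controls. Through gene IDs, 20764 matched GRCr8 and 0 symbols changed.

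The probe set with the highest mean stood for each of 14218 genes (4526 had several). Genes without a line mean of 5 (3217) were left out, and 11001 were tested with limma 3.58.1 in R 4.3.3 (lmFit, eBayes, Benjamini-Hochberg, 0.05). Cell types were compared on 6 line means (3 residual degrees of freedom), and lines on 12 arrays (6 residual degrees of freedom). Lower bounds of differences were taken after the tests, with array values below 5 set to 5 before averaging. The scripts were tested on simulated data. Alternatives covered normalization, filter, probe set choice, moderation, blocks, the arrays in the fit, and each array or line left out. The 9 genes, the other gene lists and the pairs of lines were chosen with earlier results of these data known. Genes named from the other lists were at most 4 called per list and comparison, with the largest differences, plus a few named for their role after their values were seen (Igf1r, Insr, Zfp57 and Ctcf). Sequences are from RefSeq, and motifs were searched with python 3.11.15.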

Additional observations from a re-analysis of the deposited data

Results flagged for a closer look

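The difference DAC2 minus REF2 was set against DAC8 minus REF1 in a contrast of the 4 lines, chosen after the profiles of these lines were seen, and 37.4% of all genes were called in it. Of the 9 genes, 7 were called. Cdkn1c differed by 2.15 ± 0.16 (limma adjusted p = 2.35e-05), being higher in DAC2 than in REF2 (0.93) and lower in DAC8 than in REF1 (-1.22). Mest differed by 1.80 ± 0.13 (limma adjusted p = 2.65e-05), with 0.44 in the first pair and -1.37 in the second. Plagl1 differed by 1.71 (adjusted p = 0.00158), with 1.68 and -0.03. Igf2 differed by 1.42 (adjusted p = 0.000799) and Dlk1 by 1.16 (adjusted p = 0.000406), both near 0 in the first pair, where their levels were near or below the filter. The Igf2 value rests on the probe set standing for the gene. Igf2 probe set 1371206_a_at gave 0.34 in the first pair and 0.02 in the second. Igf2r differed by -0.49 (adjusted p = 0.00810) and H19 by -0.42 (adjusted p = 0.00920), H19 being lower in the line labelled ES in both pairs. Meg3 and Grb10 were not called on the probe sets standing for them (adjusted p of 0.209 and 0.347). The second Meg3 probe set gave -1.76 in the first pair and -1.20 in the second, and no contrast is given for it. The groups of 2 arrays are too small to look for a single outlying array.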

How the results depend on the processing

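Of 570 counts of genes called (all genes or the 9) under the alternatives, 517 stayed within 1.5 times the main count, and of the single-gene differences reported, 2191 kept direction and call, 34 gained a call, 19 lost it and 2 changed sign. Those 2 were differences near 0: Meg3 in REF2 against REF1 became 0.0062 with equal array medians, and Plagl1 in DAC8 against REF1 ranged from -0.093 to 0.037 with each replicate left out. The mean of both Meg3 probe sets gave -1.30 for REF2 against REF1, which was called. The cell-type counts moved most, from 249 genes (1 of the 9) for iPS against ES and 278 (1 of the 9) for iPS against EF. With line as a random block, which had called too many genes in earlier simulations, they were 512 (2 of the 9, H19 and Cdkn1c, with Meg3 at adjusted p = 0.0969) and 557 (3 of the 9). Without any line block, a line's 2 arrays count as separate samples of a cell type, though separate cultures are not stated. In that fit the counts were 3006 (5 of the 9) and 3164 (6 of the 9), with 6 genes for ES against EF, of which 1 of the 9. With line random block and replicate block they were 469 (Cdkn1c, with Meg3 at adjusted p = 0.126) and 500 (3 of the 9 against EF), the only fit by replicate number for the cell types. Only the lines compared gave 101 (0 of the 9) and 92. Any single line of the comparison left out gave 0 genes and 0 of the 9, fewer samples being left. The mean of all probe sets gave 0 of the 9 in both, with Meg3 at adjusted p of 0.189 and 0.0912. Without DAC8 and REF2 the counts were 7719, 7982 and 8273 (9, 9 and 8 of the 9). For A1 against A2, an intensity trend called 359 genes and 1 of the 9 (Plagl1), and only the arrays compared called 13. DAC8 against REF1 gave 1322 with only those arrays. Leaving out each replicate in turn gave 77 to 182 genes and 0 to 1 of the 9 for A1 against A2, and 1244 to 2119 genes for DAC8 against REF1. Replicate numbers did not pair the samples throughout, although 3 of 15 pairs of lines lay above 0.1. Deviations of same-numbered arrays correlated at -0.08 to 0.24 over these pairs (median 0.01). A replicate block moved no count between lines by over 1.5 times. Equal array medians ended the Meg3 call in DAC2 against DAC8 (adjusted p = 0.0644). Causes of these shifts were otherwise not tested. Levels below 5 are not shown to be above background and limit Grb10, Dlk1, Plagl1, the second Meg3 probe set and the other genes given by bounds.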
